A study of Oncorhynchus mykiss with 6 samples.

Results

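The miR-144 hairpin is the source of 2 mature microRNAs (miRNAs, short RNAs that repress mRNAs), one from each arm of its stem, listed as ssa-miR-144-5p and ssa-miR-144-3p. They were taken by name as every annotated row of the families miR-144 and miR-451, which gave 2 of the 1381 rows in the table, both from miR-144. No miR-451 row was analysed here. Small RNA was sequenced from the head kidney of 6 female rainbow trout (Oncorhynchus mykiss) aged 1 year, with 1 library per fish. The heat-treated group was 3 fish at 24 °C and the control group 3 fish at 18 °C, and no genotype, strain or other treatment is given in the labels. How long the fish were held at 24 °C is not stated in the labels. The comparison asks how miRNA abundance in this organ differs between the temperatures.

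The miR-144 hairpin belongs to the red blood cell lineage. In vertebrates it lies beside miR-451 and is transcribed with it in red cell precursors under the transcription factor GATA1. Its partner miR-451 skips Dicer and is cut by Argonaute2, whereas miR-144 is cut by Dicer into a 5p and a 3p arm. In zebrafish, miR-144 represses a Krüppel-like factor that drives embryonic globin, and it also represses Dicer itself. The 3p arm is the one studied in most target work. The head kidney is the main blood-forming organ of teleost fish, whose mature red cells keep a nucleus, so the organ holds both red cell precursors and circulating red cells.

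Library totals ran from 3753036 to 5156793 counts, and of the 1381 rows, 537 had enough counts to be tested. Every pair of libraries differed by far more than sampling noise (chi-square from 117 to 344 per degree of freedom). Leukocyte, endothelial and kidney tubule families were all present, which by itself does not identify the organ. The leukocyte families miR-142, miR-150 and miR-155 summed to between 13832 and 17472 CPM in the 24 °C fish. In the 18 °C fish they summed to between 9590.0 and 17031 CPM. No row of the leukocyte family miR-223 was analysed here. CPM here is the count set to a common library total after TMM scaling. The endothelial miR-126 summed to between 87082 and 101990 CPM at 24 °C and between 81200 and 107154 CPM at 18 °C. The kidney tubule families miR-192, miR-194 and miR-204 summed to between 1763 and 2548 CPM at 24 °C. At 18 °C their sum ran from 2115 to 2993 CPM. Of the red cell families, no miR-486 row was analysed here, so of the defining red cell families miR-144, miR-451 and miR-486 only the first has values.

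The 5p arm was the abundant product. ssa-miR-144-5p had 2010, 6652 and 13600 counts in 24 °C fish 1, 2 and 3, against 2247, 3159 and 1699 counts in 18 °C fish 1, 2 and 3. Scaled, these were 388, 1565 and 3015 CPM at 24 °C, against 441, 850.0 and 355 CPM at 18 °C. Heated fish 2 and 3 lay above all 3 control fish, whereas heated fish 1 lay inside the control range, so the groups overlapped. Among all rows of a library this arm ranked 105th, 60th and 50th by count in the 24 °C fish and 96th, 79th and 105th in the 18 °C fish. From highest to lowest the order of fish was 24 °C fish 3, 24 °C fish 2, 18 °C fish 2, 18 °C fish 1, 24 °C fish 1 and 18 °C fish 3. The 95% counting intervals of the last pair in that order overlapped (371 to 405 CPM in 24 °C fish 1, and 339 to 373 CPM in 18 °C fish 3), and those of the other neighbours did not. These intervals cover counting error only.

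ssa-miR-144-5p averaged 1656 ± 1316 CPM in heated fish and 549 ± 264 CPM in control fish (SD, n = 3 each), a ratio of means of 3.02. On the log2 scale the fold change was 1.59 ± 0.70 (SE), with a 95% interval of -0.06 to 3.25, and it did not pass the test across all rows (edgeR quasi-likelihood adjusted p = 0.63). By size it was the 10th highest log2 fold change among the 537 tested rows, but by p-value it ranked only 44th. The spread between heated fish was wide, with a 7.77-fold gap between the highest and lowest at 24 °C and a 2.39-fold gap at 18 °C. Without 24 °C fish 3 the heated mean was 976 CPM, the ratio of means was 1.78 and the log2 fold change was 0.81 (edgeR adjusted p = 0.90). Without 24 °C fish 1 the log2 fold change was 2.08 (edgeR adjusted p = 0.57), and these fits were the ends of the range over 18 alternatives. Over all tested rows, 0.186% were called higher at 24 °C and 0% lower (18 and 17 rows had an unadjusted edgeR p under 0.05), and neither arm of miR-144 was called. The row called by edgeR was miR-499a-5p, known from heart and slow muscle. DESeq2 called it too, together with 1 predicted row on the lower side, novel_242 (named after its values were seen), and again neither arm of miR-144. In a bulk tissue sample, more cells of a type and more RNA per cell cannot be told apart.

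The 3p arm was scarce, and its order of fish was another one. ssa-miR-144-3p averaged 139 counts per library. It had 17.6, 38.6 and 36.8 CPM in 24 °C fish 1, 2 and 3, against 40.4, 19.9 and 27.4 CPM in 18 °C fish 1, 2 and 3. The highest value was in a control fish and the lowest in a heated fish, and the groups overlapped throughout. The means were 31.0 ± 11.7 CPM in heated fish and 29.2 ± 10.4 CPM in control fish (SD, n = 3 each). Its log2 fold change was 0.08 ± 0.43 (95% interval -0.92 to 1.08; edgeR adjusted p = 0.99), and leaving out 1 fish moved it between -0.20 and 0.38, on both sides of 0. The 95% interval still holds changes of close to 2-fold in either direction. For comparison, the heated and control fish did not overlap in 12.8% of the 537 tested rows, and neither arm of miR-144 was among these.

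**Figure D1:**
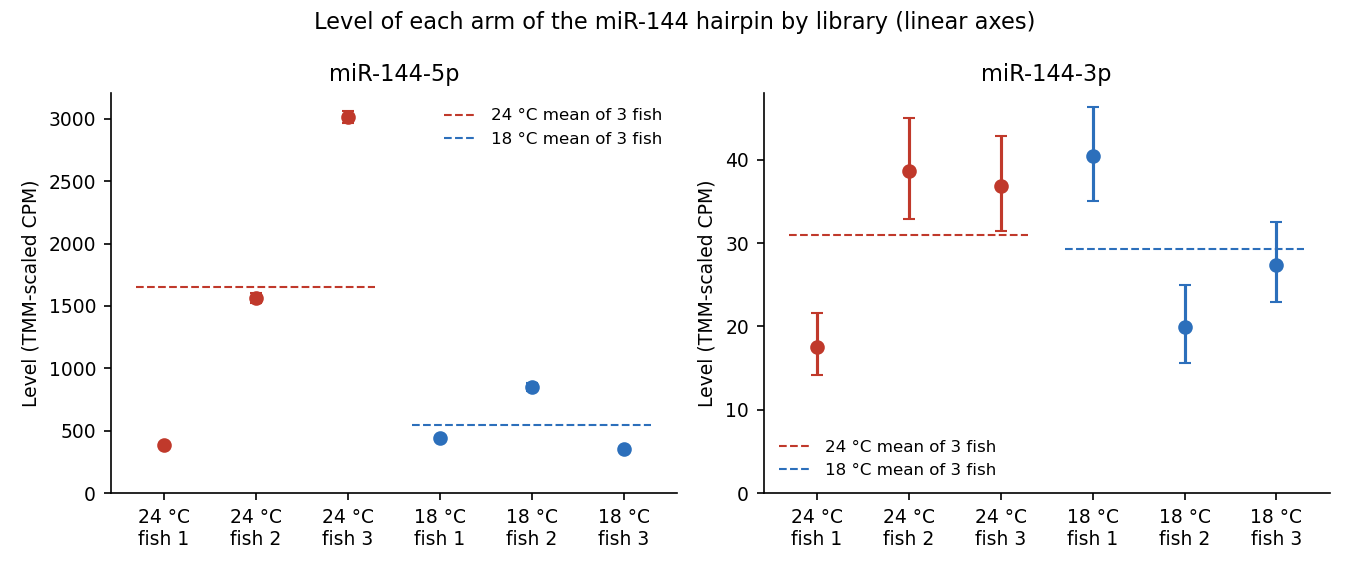
Level of miR-144-5p (left) and miR-144-3p (right) in TMM-scaled CPM on linear axes for the 3 fish at 24 °C and the 3 fish at 18 °C; points are libraries, bars are 95% counting intervals and dashed lines are group means. The 5p arm runs from 355 to 3015 CPM, with 24 °C fish 2 and 3 on top and 24 °C fish 1 among the controls, while the 3p arm stays between 17.6 and 40.4 CPM with the groups intermixed.

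Arm use, the balance of 5p to 3p within a library, was then compared, since this ratio needs no scaling between libraries. The hairpin gave 22.1, 40.6 and 81.9 counts of 5p per count of 3p in 24 °C fish 1, 2 and 3, against 10.9, 42.7 and 13.0 in 18 °C fish 1, 2 and 3. The 5p arm thus led in every library, and the ratio differed 7.51-fold between the extreme fish. Fish 3 at 24 °C had the highest ratio, 18 °C fish 1 and 3 had the lowest, and 24 °C fish 2 stood level with 18 °C fish 2. Expressed as a share of both arms, 5p took 95.7%, 97.6% and 98.8% in the 24 °C fish, against 91.6%, 97.7% and 92.8% in the 18 °C fish. The exact Clopper-Pearson 95% interval was 98.6% to 98.97% in 24 °C fish 3 and 90.4% to 92.7% in 18 °C fish 1, and it was 97.2% to 97.9% in 24 °C fish 2 and 97.1% to 98.2% in 18 °C fish 2. The extreme fish were therefore apart by more than counting error, and the 2 fish numbered 2 were not.

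The share of 5p averaged 97.4% ± 1.58 in heated fish and 94.1% ± 3.23 in control fish (SD, n = 3 each), a difference of 3.30 percentage points (two-sided exact permutation p = 0.3, where 3 against 3 cannot go below 0.1). On the log2 scale the 5p to 3p ratio was 5.38 ± 0.95 at 24 °C and 4.18 ± 1.07 at 18 °C. The difference of 1.20 ± 0.62 (SE; 95% interval -0.22 to 2.62) did not pass among the 79 hairpins with both arms counted (limma adjusted p = 0.53). Of these hairpins 0% were called, while 7 had an unadjusted p under 0.05, and miR-144 ranked 13th by p. This ratio is also the test of whether heat moved one arm more than the other, and the data do not separate the 2 arms at this sample size. Without 18 °C fish 2 the log2 difference was 1.81 (limma adjusted p = 0.14), and without 24 °C fish 3 it was 0.72 (limma adjusted p = 0.87), within a range of adjusted p from 0.14 to 0.98 over 11 alternatives. The absolute ratio rests on how readily each arm is ligated and sequenced, which was not tested.

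**Figure D2:**
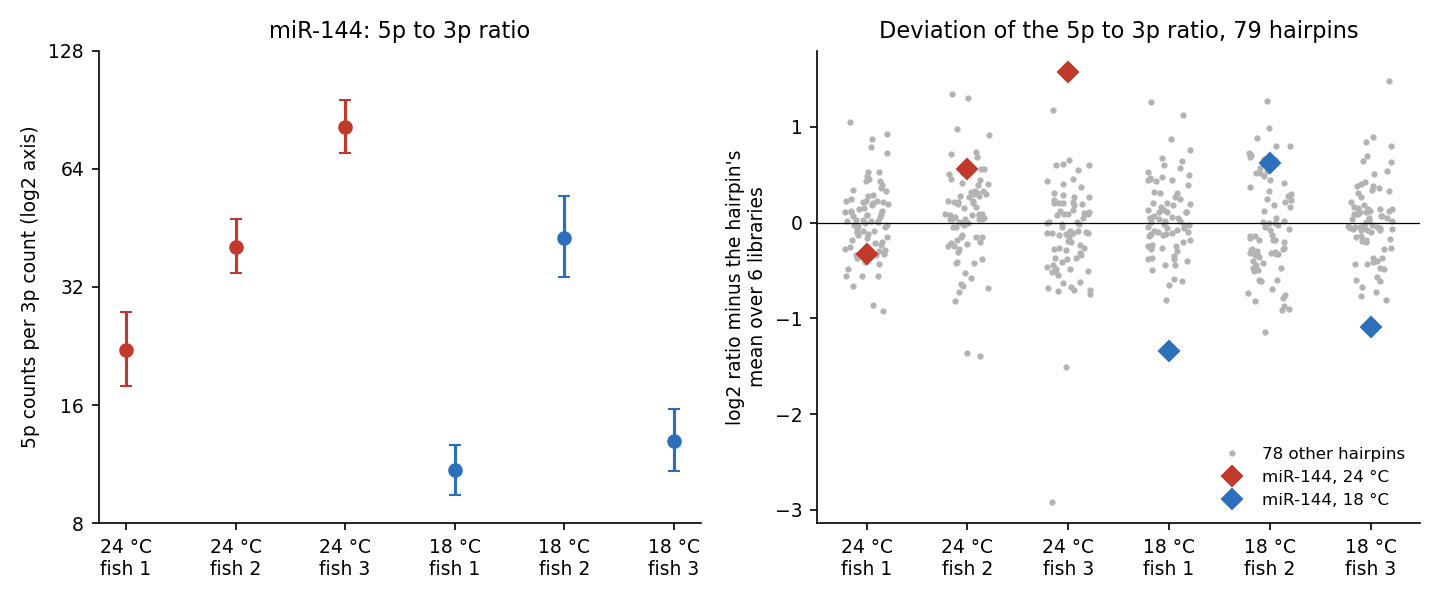
Left, 5p counts per 3p count of miR-144 in each library on a log2 axis, with exact 95% counting intervals. Right, the log2 5p to 3p ratio minus the mean of that hairpin over the 6 libraries, for miR-144 (diamonds) and the other hairpins (grey). miR-144 is the highest of the 79 hairpins in 24 °C fish 3 and the lowest in 18 °C fish 1 and 3.

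Set against the other hairpins, miR-144 was ordinary in its mean arm ratio but wide in its spread between fish. The 5p arm was the more abundant in 51 of the 79 hairpins, and 31 had a higher mean log2 ratio than the 4.78 of miR-144. Its neighbours in this order were the interferon-linked miR-731 at 4.90 and miR-2188 at 4.15. The SD of the log2 ratio over the 6 libraries was 1.12 for miR-144, against a median of 0.43 over the hairpins. Larger SDs were found only for miR-499b (1.50) and miR-459 (1.15), and the next below was miR-338a (0.89). The rarer arm of miR-499b averaged 11.2 counts and that of miR-459 averaged 16 counts, against 139 counts for miR-144-3p. Counting error alone would give miR-144 an SD of 0.13. Of the 22 hairpins whose rarer arm had a mean within 2-fold of that of miR-144-3p, miR-144 had the largest SD, and their median was 0.40. The SD is a description of 6 fish and was not tested between hairpins.

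**Figure D3:**
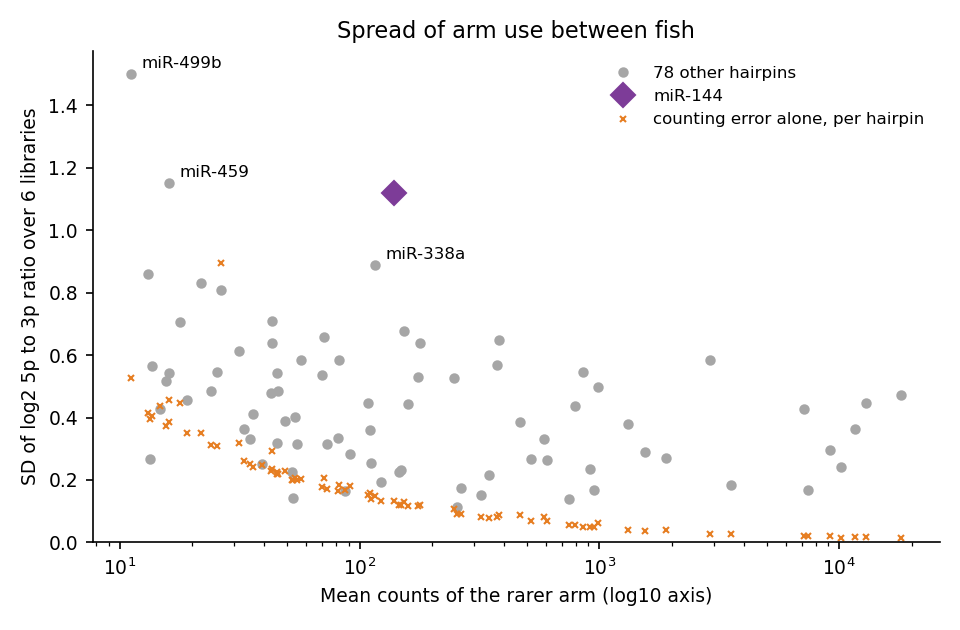
SD of the log2 5p to 3p ratio over the 6 libraries for each of the 79 hairpins, against the mean count of the rarer arm on a log10 axis; crosses give the SD that counting error alone would produce. miR-144 (diamond) lies at an SD of 1.12 with 139 counts of the rarer arm, above every hairpin of similar depth.

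The arm ratios of all hairpins were set beside that of miR-144 in each library. The median deviation over the 79 hairpins was 0.02, 0.08 and -0.10 (log2) in 24 °C fish 1, 2 and 3, and 0.02, -0.14 and 0.01 in 18 °C fish 1, 2 and 3. The deviation of miR-144 was -0.32, 0.56 and 1.57 in the 24 °C fish, against -1.34, 0.62 and -1.09 in the 18 °C fish. Of the 3 fish in which miR-144 lay towards 5p, the median hairpin lay slightly towards 3p in 24 °C fish 3 and 18 °C fish 2, and slightly towards 5p in 24 °C fish 2. The part of a shift across all hairpins in the ratio of miR-144 was not tested.

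A relation between the levels of both arms across fish was not detectable. Over the 6 libraries, log2 CPM of miR-144-5p and miR-144-3p had a Pearson r of 0.45 (exact permutation p = 0.36) and a Spearman rho of 0.37 (exact permutation p = 0.497). No other relation between levels was tested by permutation. Without 24 °C fish 3 and fish 2, the 2 libraries farthest from the median of 5p, r was -0.28. Dropping the extremes of 5p also narrows its range, so this value cannot tell what the positive r rests on. Leaving out any 1 library gave an r from 0.26 to 0.72. With 3 fish per temperature no value was computed within a group. Over the 79 hairpins the median r between arms was 0.40, and 41 hairpins had a lower r than miR-144. In 18 °C fish 2 the 5p arm was the highest of the controls and the 3p arm the lowest.

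Other miRNAs tied to red cells were then compared with miR-144, by families chosen for their known roles. Of 19 families, 15 had rows, and 49 rows could be tested. No row passed in either direction. A positive log2 fold change was found in 32 of the 49, against 270 of all 537 tested rows. The median was 0.11, against 0.002 over all tested rows. Heated and control fish did not overlap in 5 of the 49, all higher at 24 °C, where 6.89% of all tested rows lay apart on the higher side and 5.96% on the lower side. The 5 listed rows were miR-20a-1-3p, miR-20a-2-3p, miR-92b-3p, miR-106b-5p and miR-150-5p, named after their values were seen. In edgeR 1 listed row, miR-150-5p, had an unadjusted p under 0.05 on the higher side and 0 rows on the lower side, and DESeq2 and limma-voom also called 0 after adjustment. The list was chosen with earlier results of these libraries known, and several of its families are also abundant in leukocytes.

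Families that are abundant in red cells (miR-15, miR-16, miR-20, miR-25, miR-92, miR-93 and miR-106) had 32 tested rows, of which 0 passed. A positive estimate was found in 22 of them, against 270 of all 537 tested rows, and the median log2 fold change was 0.09. The most abundant was miR-92a-3p of the miR-17/92 cluster, which promotes proliferation of blood precursors. It had 22312, 19837 and 30689 CPM in 24 °C fish 1, 2 and 3, against 16931, 27065 and 14662 CPM in 18 °C fish 1, 2 and 3. Its highest values were in 24 °C fish 3 and 18 °C fish 2, which were also the highest fish of their groups for miR-144-5p. The log2 fold change of miR-92a-3p was 0.31 ± 0.27 (edgeR adjusted p = 0.83). miR-20a-5p of the same cluster had 3919, 3546 and 5635 CPM at 24 °C, against 3359, 4714 and 2803 CPM at 18 °C, with the same pair of fish on top. Its log2 fold change was 0.27 ± 0.26 (edgeR adjusted p = 0.84). Another member of the cluster, miR-19a-3p, was instead highest in 24 °C fish 2 (11206 CPM) and lowest in 18 °C fish 2 (5647 CPM). Of the 10 listed rows besides miR-144-5p with a mean of at least 1000 CPM, 4 were highest in 24 °C fish 3. These were miR-92a-3p and miR-20a-5p, already described, with miR-15d-5p and miR-222a-5p. The last belongs to a family known to act against red cell maturation. By comparison, 104 of all 537 tested rows were highest in 24 °C fish 3. That share covers rows of every level, not only those with a mean of at least 1000 CPM. Under 1000 CPM, every tested row of miR-15, miR-20 and miR-210 was highest in that fish, as named after their values were seen. At that level the rows of miR-16 and miR-93 were mixed, and no tested row of the other listed families was highest in it.

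miR-16a-5p, among the most abundant miRNAs of mammalian red cells, was not highest in 24 °C fish 3. It had 10023, 7547 and 9472 CPM at 24 °C, against 8624, 11528 and 8402 CPM at 18 °C, and the groups overlapped. The log2 fold changes of miR-16a-5p, miR-16b-5p, miR-15c-5p, miR-15d-5p and miR-25-3p lay between -0.08 and 0.08, and none passed. Summed over the red cell families, the level was 53515, 45159 and 65026 CPM at 24 °C, against 44545, 63654 and 38720 CPM at 18 °C. Fish 2 at 24 °C was thus second highest for miR-144-5p but lay below 24 °C fish 1 for this sum.

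Families known to act against red cell maturation (miR-221 and miR-222, which repress the receptor KIT in human precursors, with miR-24, miR-150 and miR-155) had 13 tested rows. None passed, 8 had a positive estimate (against 270 of all 537 tested rows) and the median log2 fold change was 0.12. Their summed level was 8214, 9812 and 8306 CPM in 24 °C fish 1, 2 and 3, against 7780, 7745 and 7450 CPM in 18 °C fish 1, 2 and 3. Every heated fish lay above every control fish in this sum, which was not tested. Taken as single rows, 6.89% of all 537 tested rows lay apart on the higher side, and of these 13 rows only miR-150-5p did. The share of single rows is no background for a sum of rows. Within the sum, miR-155-5p had 1285 CPM in 24 °C fish 2, against 369 and 393 CPM in 24 °C fish 1 and 3. miR-222a-5p averaged 2222 ± 328 CPM in heated fish and 2052 ± 140 CPM in control fish (SD, n = 3 each). miR-221-5p averaged 1564 ± 212 CPM in heated fish and 1359 ± 258 CPM in control fish. miR-222a-3p had a log2 fold change of 0.17 ± 0.18 (edgeR adjusted p = 0.85). The remaining families, miR-103, miR-107 and the hypoxia-linked miR-210, had 4 tested rows, none of which passed, and a median of 0.17.

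The range between fish differed among the listed red cell miRNAs. The highest library held 8.49 times the lowest for miR-144-5p, against at most 2.11 times for the 10 other listed rows with a mean of at least 1000 CPM. Some rarer listed rows ranged more widely than that, with 4.85 times for miR-155-5p (mean 587 CPM) and 5.07 times for miR-15d-3p (mean 18.0 CPM). miR-144-5p itself reached a mean of 1000 CPM only through the heated fish (1656 CPM at 24 °C, against 549 CPM at 18 °C). Of all 537 tested rows, 64 had a wider range than miR-144-5p. None of these was among the 74 tested rows with a mean of at least 1000 CPM. For miR-144-3p the highest library held 2.30 times the lowest.

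**Figure D4:**
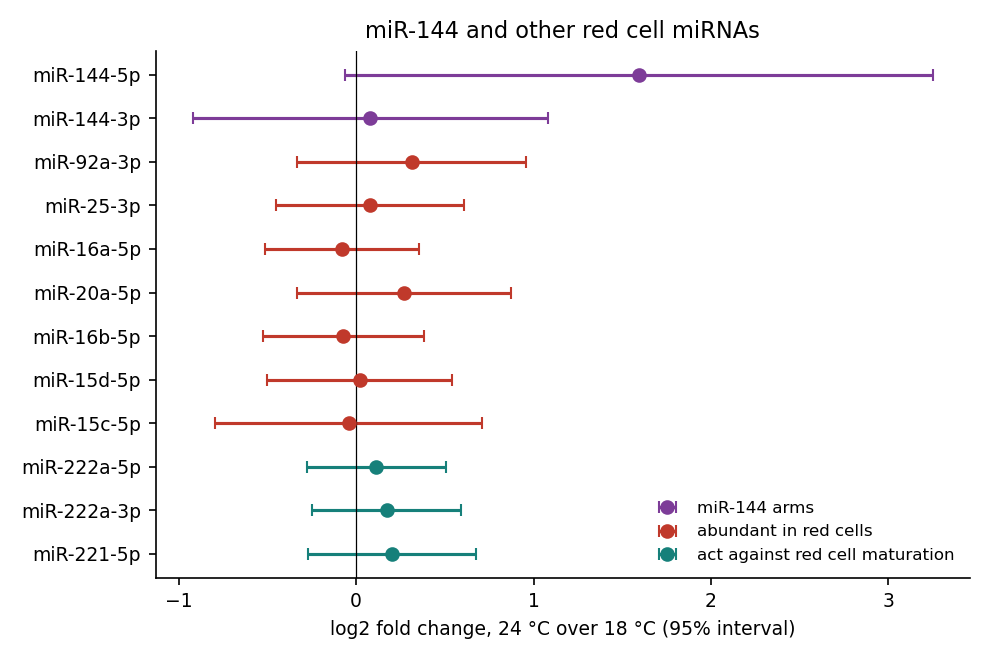
log2 fold change at 24 °C over 18 °C with its 95% interval (edgeR, n = 3 fish each) for both arms of miR-144 and for the listed red cell rows with a mean of at least 1000 CPM. miR-144-5p has the largest estimate, 1.59, and the widest interval, and every interval shown includes 0.

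The annotated miRNAs most like each arm were found by the root mean square (RMS) difference of log2 CPM, centred on the mean of each miRNA over the 6 libraries, among 224 candidates with a mean of at least 10 CPM. For miR-144-5p the closest was miR-2188-3p (RMS difference 0.46, against a median of 1.16 over the candidates). It had 23.5, 98.6 and 96.9 CPM in 24 °C fish 1, 2 and 3, against 33.4, 52.2 and 31.2 CPM in 18 °C fish 1, 2 and 3. As with miR-144-5p, heated fish 2 and 3 lay above every control, and heated fish 1 was low. The other arm of that hairpin, miR-2188-5p, also stood among the 5 closest (0.80) and was far more abundant, at 725, 1177 and 1202 CPM at 24 °C, against 776, 843 and 575 CPM at 18 °C. The others were both arms of miR-15a (0.77 for 3p and 0.86 for 5p) and miR-7132a-3p (0.86). That last row had 47.1, 43.1 and 67.8 CPM at 24 °C, against 21.6, 25.6 and 27.0 CPM at 18 °C. Unlike miR-144-5p, it was therefore not low in 24 °C fish 1. None of these 5 passed the test between temperatures (edgeR adjusted p from 0.54 to 0.83).

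miR-144-3p had other nearest neighbours, and none was shared with the 5p arm. The closest was miR-19a-3p of the miR-17/92 cluster (RMS difference 0.21, median 0.57). It had 5892, 11206 and 7961 CPM at 24 °C, against 9663, 5647 and 8452 CPM at 18 °C. Like miR-144-3p it was low in 24 °C fish 1 and 18 °C fish 2. The next were let-7e-3p (0.25), miR-140-5p (0.29), miR-142b-5p of the blood cell family miR-142 (0.32) and miR-455-3p (0.34). The RMS difference between the arms of miR-144 was 1.02, which placed miR-144-3p 34th among the 224 candidates for miR-144-5p and miR-144-5p 212th for miR-144-3p. The RMS difference also grows with the size of the swings between fish. Centred log2 CPM ran from -1.15 to 1.93 for miR-144-5p, against -0.69 to 0.49 for miR-144-3p. The ranks and the unshared neighbours therefore mix size of swing with order of fish, and cannot tell these apart. The candidates share libraries and scaling, so likeness over 6 fish is a description.

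**Figure D5:**
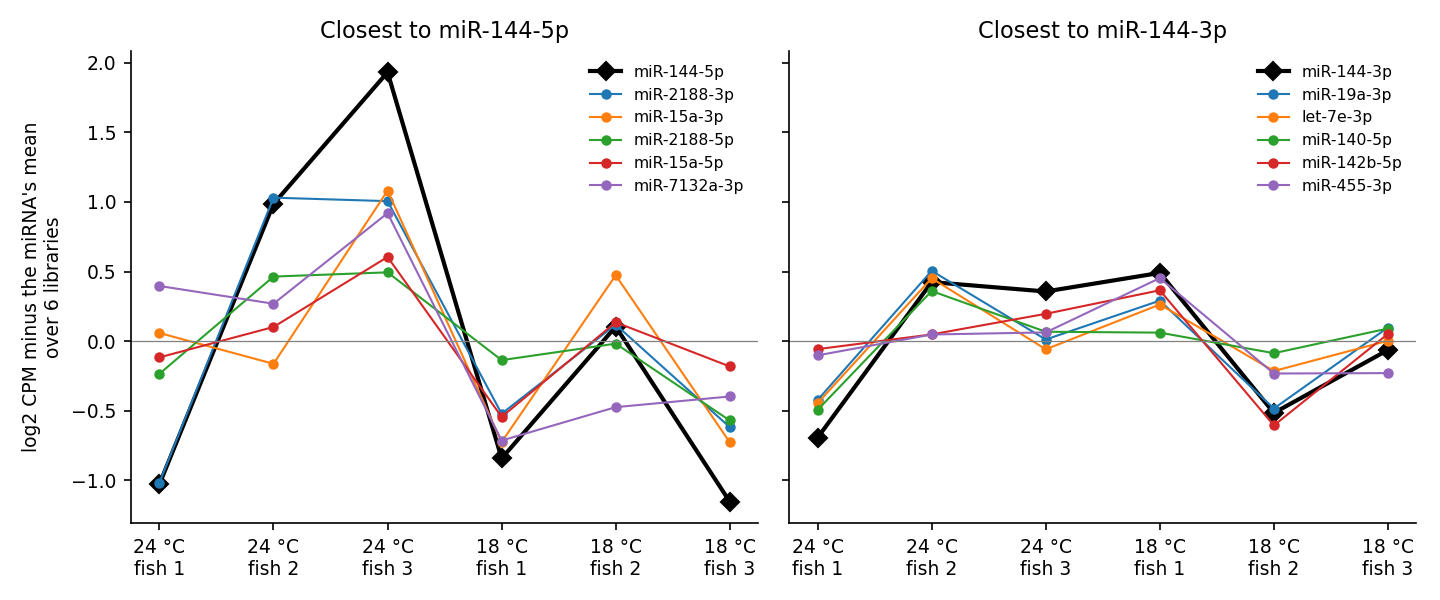
log2 CPM minus the mean of each miRNA over the 6 libraries, for miR-144-5p (left, black) and miR-144-3p (right, black) with the 5 annotated miRNAs closest to each. miR-144-5p peaks in 24 °C fish 3, and miR-2188-3p follows it with a nearly equal high in 24 °C fish 2 and 3; the neighbours of miR-144-3p are lowest in 24 °C fish 1 or 18 °C fish 2.

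Fish 3 at 24 °C, which held the most miR-144-5p, also held the most striated muscle miRNAs. miR-1-3p had 193, 379 and 1037 CPM in 24 °C fish 1, 2 and 3, against 70.2, 100.4 and 276 CPM in 18 °C fish 1, 2 and 3. The 11 rows of 4 muscle families with rows summed to 1137, 1594 and 2326 CPM at 24 °C, against 438, 411 and 725 CPM at 18 °C. Of these, miR-499a-5p was the only row called higher at 24 °C (log2 fold change 2.53 ± 0.25, edgeR adjusted p = 0.0092). That call was lost with the replicate block (edgeR adjusted p = 0.079) and without 18 °C fish 1 (0.146), 18 °C fish 3 (0.086) or 24 °C fish 2 (0.077), while the log2 fold change stayed between 2.40 and 2.53 in these fits. Among heated fish the muscle sum and miR-144-5p had the same order, whereas among controls fish 3 had the highest muscle sum and the lowest miR-144-5p. The epithelial families summed to between 405 and 435 CPM at 24 °C and between 434.5 and 838 CPM at 18 °C, and the liver miRNA miR-122 to between 24.2 and 74.1 CPM at 24 °C and between 5.30 and 81.6 CPM at 18 °C. The part of blood, muscle or other tissue content in the level of miR-144-5p was not tested.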

How the data were processed

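Total RNA was extracted with TRIzol and made into small RNA libraries with the NEBNext kit, per the labels' protocols. The authors deposited whole-number read counts per miRNA, 392 under Atlantic salmon (ssa) names and 989 as numbered predictions. Their deposited TPM values are counts scaled to a common library total (largest difference 2.33e-10) with no correction for length. The submitters' processing notes name Bowtie. The sources used here give neither its version nor the genome build, nor how reads that match several miRNAs were counted, so reads of near-identical copies may be shared between rows.

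Groups come from the sample titles and the series' design text. The test of counts was edgeR 4.0.16 under R 4.3.3 (filterByExpr with a minimum count of 10 and minimum total of 15, TMM, robust quasi-likelihood fit, all 6 libraries), with Benjamini-Hochberg adjustment over the 537 rows kept and a threshold of 0.05. Arm ratios were tested with limma 3.58.1 on log2 ratios after adding 0.5 to every count, over hairpins whose arms each averaged at least 10 counts. Both tests were checked on simulated data, which does not establish their error rates in these libraries. For edgeR the simulated counts used dispersions estimated from these same libraries. For the arm ratio every hairpin was simulated at the median SD (0.43), so that check does not cover a spread as wide as that of miR-144 (1.12). Log2 CPM used a prior count of 2. Alternatives were limma-voom, DESeq2 1.42.0, other scalings, filters and pseudocounts, limma on log2 TPM with 1 or 10 added, a replicate block and each library left out. Figures were drawn with matplotlib 3.10.9.

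The members and lists were chosen with earlier results of these data known. Named miRNAs were the members, tested rows of the red cell list with a mean of at least 1000 CPM, the 5 annotated rows closest to each arm, the neighbouring hairpins in arm ratio and its SD, and 4 muscle miRNAs. Outside this rule, miR-155-5p and miR-15d-3p were named after their values were seen, as were the rows marked so in the text. A planned choice of rows that share a seed with miR-144 needs mature sequences, which were not used here. Nothing says whether libraries of a group came from separate tanks, so p-values measure the spread between these fish.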

Additional observations from a re-analysis of the deposited data

How the results depend on the processing

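miR-144-5p and miR-144-3p passed in none of 18 alternative fits. The log2 fold change of miR-144-5p ran from 0.81 to 2.08 (adjusted p from 0.57 to 0.90), both ends from leaving out a library, and was 1.22 to 1.62 otherwise. That of miR-144-3p was positive under every other setting and ran from -0.20 to 0.38 without a library. The 5p to 3p log2 ratio ran from 0.72 to 1.81 without a library (limma adjusted p from 0.14 to 0.98) and the 5p share difference from 2.08 to 5.13 percentage points, or 3.61 from summed counts. The correlation of the arms ran from 0.26 to 0.72 without a library. Red cell list rows passed in 0 cases under every alternative. Rows called higher at 24 °C numbered 1, but 0 with the replicate block, and from 0 to 1 when a library was left out; rows called lower numbered 0, but 1 in DESeq2 and from 0 to 1 when a library was left out, and the cause was not tested. Same-numbered fish did not deviate together by correlation (-0.06, -0.18 and -0.15). Yet miR-1-3p, miR-133a-3p and miR-206-3p rose from fish 1 to fish 3 in both groups. The block lowered their SEs from 0.74, 0.84 and 0.73 to 0.25, 0.39 and 0.34, while that of miR-499a-5p was 0.25 without it and 0.27 with it. Whether fish were paired by number was not tested. Under the block the log2 fold change was 1.22 for miR-144-5p (edgeR adjusted p = 0.89) and 0.07 for miR-144-3p. The ratio difference was then 1.20 (limma adjusted p = 0.35) and the share difference 3.30. Of 467 values of other named miRNAs, 37 had the other sign, all of rows at or under 0.24 in size, 0 reversed a call and 4 lost one, all of miR-499a-5p. The 3p arm, at an average of 139 counts per library, limits the precision of the arm ratio.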

Other observations

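The 3p arm of miR-101 is known in vertebrates to have nearly the same seed as miR-144-3p, and its rows were named here after their values were seen. miR-101a-3p had 21044, 21615 and 23501 CPM in 24 °C fish 1, 2 and 3, against 21145, 15323 and 18278 CPM in 18 °C fish 1, 2 and 3. Its mean over the 6 libraries was 669 times that of miR-144-3p. The rarer miR-101b-3p had 148 ± 28.5 CPM in heated fish and 125.7 ± 40.5 CPM in control fish (SD, n = 3 each), a mean 4.55 times that of miR-144-3p. The log2 fold changes were 0.27 ± 0.15 for miR-101a-3p (edgeR adjusted p = 0.69) and 0.24 ± 0.31 for miR-101b-3p (edgeR adjusted p = 0.90), and neither passed. The mature sequences of the trout rows were not analysed here.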
